A study of Mus musculus with 6 samples.

Results

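The interleukin-1 (IL-1) family joins cytokines of inflammation, the receptors that read them and the protease that activates some of them. Its probe sets were taken as those whose only gene symbol in the platform annotation is Il1a, Il1b, Il1rn, Il1r1, Il1r2, Il1rap, Il1rl1, Il18, Il33 or Casp1. That gave 16 probe sets for 9 of the 10 genes, of 45037 probe sets and 18193 genes on the array, and Il1rl1, the receptor of IL-33, was not analysed here. The array reads each transcript with 1 or more probe sets, each a set of short oligonucleotides. Expression was measured in colon cancer tumours on 6 Affymetrix arrays, 3 from mice carrying human IL8 as a transgene (genotype label IL8 transgenic) and 3 from wild type control mice, all CBA/C57BL/6 and all labelled male. Human IL8 (CXCL8) is a neutrophil-attracting chemokine for which the mouse has no direct counterpart. The labels give neither the promoter of the transgene, nor the ages, nor how the tumours were induced. They also do not say whether tumours were pooled, and the p-values therefore cover no more than the spread among these arrays, which may be technical in part.

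IL-1α and IL-1β, the products of Il1a and Il1b, bind the receptor encoded by Il1r1, which signals together with the accessory chain encoded by Il1rap through MyD88 to NF-κB. The antagonist encoded by Il1rn occupies the same receptor without signalling, and the receptor encoded by Il1r2 is a decoy. Caspase-1, activated in inflammasomes, cuts the precursors of IL-1β and IL-18 into their active forms, so mRNA levels do not report active cytokine, while IL-33 is a nuclear alarmin released from damaged cells. In the intestine IL-18 is made largely by epithelium and IL-1β largely by myeloid cells.

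Some arrays stood apart or went against their labels. All 3 transgenic arrays had Xist, the RNA of the inactive X chromosome, at log2 12.27 to 12.89, against 2.33 to 2.64 on the control arrays. The Y-linked gene Eif2s3y was at 2.39 to 2.71 on the transgenic arrays and 9.99 to 10.22 on the control arrays. By these genes the transgenic tumours read as female and the control tumours as male, although every animal is labelled male. Genotype and sex therefore cannot be told apart on any of the 6 arrays. Transgenic array 2 carried genes of stratified squamous epithelium, with Krtdap at 12.31 against 2.62 or less on every other array, and Trp63 at 8.97 against 2.29 or less. The epithelial marker Epcam lay at 13.87 to 13.95 on the transgenic arrays and 13.82 to 13.93 on the control arrays, and Cdh1 at 12.20 to 12.37 on the transgenic arrays and 11.97 to 12.20 on the control arrays. The leukocyte gene Ptprc lay lower on the transgenic arrays, at 8.56 to 9.55, against 9.56 to 10.08 on the control arrays. Values are the authors' log2 expression values, and differences below are transgenic minus control on that scale.

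Over the family, no probe set differed beyond the spread between arrays after adjustment, and the difference with the smallest p was a lower level of the signalling receptor gene Il1r1. A probe set was tested when it reached log2 4 on at least 3 of the 6 arrays, which 9 of the 16 did, for 7 genes. With limma and Benjamini-Hochberg adjustment over 19310 probe sets, 0 of the 9 passed an adjusted p of 0.05 (11 probe sets, 0.057%, did among all tested), and 1 of the 9 had an unadjusted p under 0.05 (5.5% among all tested). The groups did not overlap for 1 of the 9 (10.9% among all tested, in either direction). By the brightest probe set of each gene, 3 of 7 genes were higher in transgenic tumours and 4 lower, with a median difference of -0.23 beside -0.02 over all probe sets tested. The adjusted p of the 9 ran from 0.806 to 0.980. In bulk tumour RNA, fewer cells of a type and less RNA per cell cannot be told apart.

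The promoters of 4 genes are shown because the differences and the array-to-array spread described below centre on them: Il1r1, whose groups did not overlap, Il1b and its antagonist Il1rn, and Il33, which 1 array sets apart. Each sequence is a RefSeq window (GRCm38.p6) of 250 bases before and 50 after a transcription start, written 5′ to 3′ on the gene's strand. Capitals mark TATAAA, the letters of a TATA box, and TGANTCA, letters like those of an AP-1 site, each searched on both strands.
Il1r1, upstream start (chr1:40224830-40225129, plus strand): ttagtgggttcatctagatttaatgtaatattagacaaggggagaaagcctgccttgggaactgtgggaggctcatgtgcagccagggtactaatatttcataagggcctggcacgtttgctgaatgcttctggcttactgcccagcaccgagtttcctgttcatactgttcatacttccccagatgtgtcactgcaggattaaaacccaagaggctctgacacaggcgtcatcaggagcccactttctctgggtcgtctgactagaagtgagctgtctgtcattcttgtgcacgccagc
Il1r1, downstream start (chr1:40266336-40266635, plus strand): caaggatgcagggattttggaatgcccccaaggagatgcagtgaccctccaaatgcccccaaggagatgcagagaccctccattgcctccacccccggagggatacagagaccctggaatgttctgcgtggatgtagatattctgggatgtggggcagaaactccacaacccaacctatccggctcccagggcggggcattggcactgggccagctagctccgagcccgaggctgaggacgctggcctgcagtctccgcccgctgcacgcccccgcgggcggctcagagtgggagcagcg
Il1b (chr2:129371090-129371389, minus strand): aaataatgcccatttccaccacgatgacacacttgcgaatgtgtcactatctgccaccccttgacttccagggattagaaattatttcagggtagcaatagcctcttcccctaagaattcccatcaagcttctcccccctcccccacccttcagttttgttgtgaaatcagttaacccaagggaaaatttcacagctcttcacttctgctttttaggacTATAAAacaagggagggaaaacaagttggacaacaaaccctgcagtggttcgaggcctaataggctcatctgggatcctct
Il1rn, upstream start (chr2:24336610-24336909, plus strand): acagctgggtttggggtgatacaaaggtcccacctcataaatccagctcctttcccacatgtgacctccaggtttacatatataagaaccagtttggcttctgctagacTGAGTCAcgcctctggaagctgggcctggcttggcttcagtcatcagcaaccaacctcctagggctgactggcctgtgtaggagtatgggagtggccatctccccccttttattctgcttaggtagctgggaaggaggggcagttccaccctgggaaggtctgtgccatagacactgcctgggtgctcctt
Il1rn, downstream start (chr2:24345121-24345420, plus strand): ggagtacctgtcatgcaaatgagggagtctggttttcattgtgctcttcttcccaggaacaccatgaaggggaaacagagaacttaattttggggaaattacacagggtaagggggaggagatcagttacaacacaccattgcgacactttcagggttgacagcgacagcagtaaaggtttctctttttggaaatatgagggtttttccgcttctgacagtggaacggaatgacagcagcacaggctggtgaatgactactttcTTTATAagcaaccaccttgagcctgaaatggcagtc
Il33 (chr19:29945540-29945839, plus strand): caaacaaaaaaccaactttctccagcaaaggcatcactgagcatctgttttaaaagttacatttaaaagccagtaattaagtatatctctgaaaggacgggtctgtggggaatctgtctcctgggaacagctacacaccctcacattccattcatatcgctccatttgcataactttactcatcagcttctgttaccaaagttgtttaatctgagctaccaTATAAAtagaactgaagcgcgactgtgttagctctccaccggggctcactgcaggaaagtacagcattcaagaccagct
All 10 genes had a window, 15 in all. The letters TATAAA began 31 bases before the start of Il1b, 32 before that of Il1a and 29 before the Il33 start shown, and 6 of the 15 windows held them, where 13.6% of all 32851 windows do. In the downstream Il1rn window they stood on the opposite strand, after the start. The other matches lay 203 bases before the other Il33 start and, on the opposite strand, 175 before that of Il18. The 15 windows include 1 more of Il1rn, chr2:24345041-24345340, which overlaps the downstream one shown and held neither motif. TGANTCA stood in 2 of the 15 windows, those of Il1a and of the upstream Il1rn start, 12 and 141 bases before the start, and 7.81% of all windows hold it. Neither Il1r1 window held either motif. A match only says that these letters lie there.

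**Figure D1:**
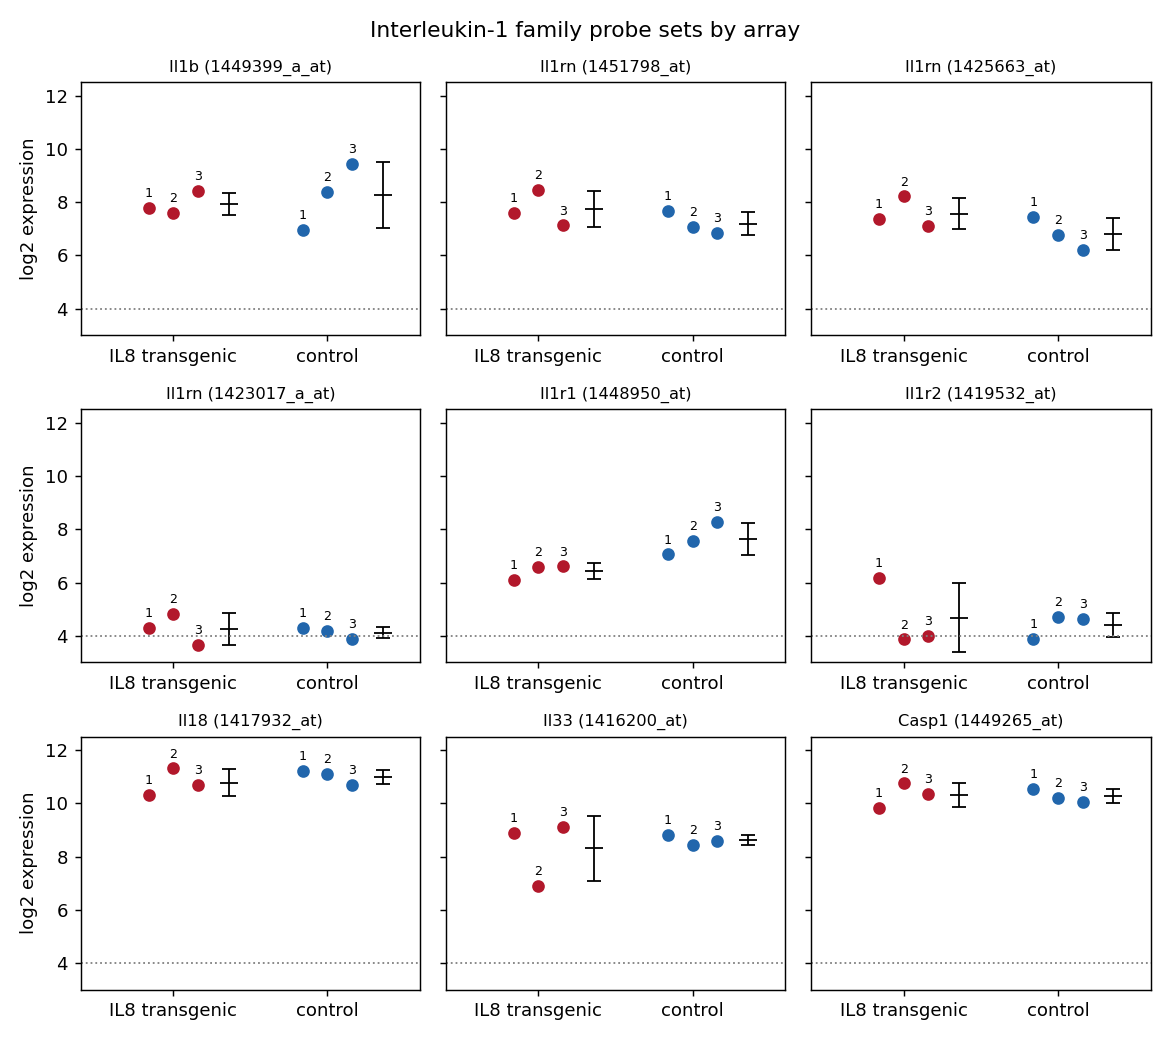
Log2 expression (vertical axis) of the 9 tested probe sets of the family in IL8 transgenic (red, left) and control (blue, right) tumours, 1 point per array with its number, and the group mean ± SD as a bar beside the points. The dotted line is the level of 4 used for testing; only for Il1r1 do all transgenic points, 6.09 to 6.61, lie under all control points, 7.06 to 8.29.

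Among the ligands, Il1b was the one agonist of the IL-1 receptor with a measurable level, and its spread was widest among the controls. Il1b was at 7.78, 7.59 and 8.41 on transgenic arrays 1 to 3, against 6.96, 8.38 and 9.42 on control arrays 1 to 3. The transgenic values all fell inside the control range. The means were 7.93 ± 0.43 in transgenic and 8.25 ± 1.24 in control tumours (SD, n = 3 each), a difference of -0.33 ± 0.62 (SE) with a 95% interval of -1.82 to 1.16 and a limma adjusted p of 0.914. Without control array 3 the difference was 0.26, and without control array 1 it was -0.98. Il1a, the other agonist, was at 4.09, 2.82 and 3.84 in transgenic tumours and 3.64, 3.08 and 3.64 in control tumours. It reached 4 on transgenic array 1 alone and was not tested.

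Marker genes of the myeloid cells that make IL-1β were set beside Il1b. Of 16 monocyte and macrophage markers 14 were tested, 13 of them lower in transgenic tumours, with a median difference of -1.02, and 0 passed limma (8 at an unadjusted p under 0.05). The groups did not overlap for 6 of the 14, all lower, where 6.31% of all probe sets tested were lower without overlap. The summed linear level of the 14 was 4749 to 11298 on the transgenic arrays and 12257 to 16508 on the control arrays, lowest on transgenic array 2. Lyz2, the brightest of the 14, weighs most in this sum, and the gap between the groups may rest on it. It was at 12.05, 10.52 and 12.46 in the transgenic tumours, against 12.55, 12.69 and 12.96 in control tumours. Within the controls the sum was lowest on array 1 and highest on array 3, the arrays that were also lowest and highest for Il1b. Over all 6 arrays the orders differed. Control array 1 had the lowest Il1b, at 6.96, but a sum above that of every transgenic array. Of 15 neutrophil markers 7 were tested, 4 higher and 3 lower with 0 calls by limma (2 at an unadjusted p under 0.05), and their sum was 4568 to 8301 on the transgenic and 3005 to 4379 on the control arrays. Most of that sum came from S100a8 and S100a9, which encode the calprotectin subunits, and the other 5 markers summed to 481 to 1344 on the transgenic and 437 to 758 on the control arrays, overlapping. S100a8 differed by 0.78, S100a9 by 1.02 and Ltf by 2.09, each at a limma adjusted p of 0.806. Mmp9, a gelatinase gene, went the other way, with a difference of -1.95 and a limma adjusted p of 0.806. The groups did not overlap for 2 markers that were higher and 1 that was lower in transgenic tumours. Over all probe sets tested 10.9% did not overlap, in either direction. Of the untested markers with a probe set, Cxcr2, Mmp8 and Camp stayed under 4 on every array, by the brightest probe set. Trem1 reached 4 on transgenic array 1 alone, at 4.49, and Csf3r on control array 2 alone, at 4.46. Ngp was at 5.78, 4.06 and 3.80 in the transgenic tumours, against 3.58, 3.43 and 3.05 in control tumours. The part of these cells in the Il1b values was not tested.

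The antagonist gene Il1rn had 3 probe sets, and all 3 had higher means in transgenic tumours, with overlapping groups and no call. Its brightest probe set was at 7.61, 8.47 and 7.13 in the transgenic tumours, against 7.66, 7.08 and 6.83 in control tumours. Transgenic array 2 was the highest of all 6, and control array 1 lay above both other transgenic arrays. The difference was 0.54 ± 0.39 (SE), with a 95% interval of -0.40 to 1.48 and a limma adjusted p of 0.807. The second brightest was at 7.38, 8.22 and 7.11 in the transgenic tumours, against 7.44, 6.77 and 6.22 in control tumours, a difference of 0.76 ± 0.41 (limma adjusted p 0.806). The dimmest stayed between 3.65 and 4.82 on all arrays and differed by 0.14.

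Il1rn was highest on the array with squamous genes, and its difference varied with several of the arrays left out. Leaving out transgenic array 2 gave 0.18, 0.44 and -0.15 for the 3 probe sets from the brightest to the dimmest, and leaving out control array 3 gave 0.37, 0.46 and 0.014. Without transgenic array 3 they were 0.85, 0.99 and 0.44, and without control array 1 they were 0.78, 1.08 and 0.22. Of 16 squamous markers 5 were tested, and all 5 had higher means in transgenic tumours with 0 calls in limma and 0 at an unadjusted p under 0.05. Their summed linear level was 20524 on transgenic array 2, 459 and 523 on the other transgenic arrays and 346 to 782 on the control arrays. Krt5, a keratin of the basal squamous layer, was at 10.27 there and did not exceed 2.86 on any other array. The part of squamous tissue in the Il1rn values was not tested beyond leaving out the array.

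Il18 and Casp1, a cytokine precursor and the protease that cuts it, had the narrowest ranges over the 6 arrays among the 7 tested genes, by the brightest probe set, at 1.00 and 0.91 log2 units. Il18 was at 10.31, 11.31 and 10.67 in the transgenic tumours, against 11.20, 11.09 and 10.68 in control tumours. The difference was -0.23 ± 0.29 (SE), with a 95% interval of -0.94 to 0.48 and a limma adjusted p of 0.872. Without transgenic array 1 it was -0.0013, and without transgenic array 2 it was -0.50. Casp1 was at 9.83, 10.74 and 10.34 in the transgenic tumours, against 10.55, 10.20 and 10.06 in control tumours. The groups overlapped and the difference was 0.04 ± 0.27, with a 95% interval of -0.62 to 0.69 and a limma adjusted p of 0.980. Both genes were highest on transgenic array 2 and lowest on transgenic array 1, and within the controls both were highest on array 1 and lowest on array 3.

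Il33, the alarmin, was set apart by 1 array. It was at 8.89, 6.89 and 9.12 in the transgenic tumours, against 8.80, 8.44 and 8.59 in control tumours. Transgenic array 2 was the lowest of the 6, while transgenic arrays 1 and 3 lay above every control array. The difference was -0.31 ± 0.59 (SE), with a 95% interval of -1.72 to 1.11 and a limma adjusted p of 0.915, and it was 0.40 without transgenic array 2, where the limma adjusted p was 0.924. That array is the one with Krtdap at 12.31. Endothelial markers, of which 7 of 10 were tested, summed to 416 to 489 on the transgenic and 564 to 619 on the control arrays, at 489 on transgenic array 2. The groups did not overlap for 1 of the 7, Sox18, beside 6.31% lower without overlap over all probe sets tested. Sox18 was at 4.36, 5.56 and 5.69 in the transgenic tumours, against 6.95, 7.44 and 6.98 in control tumours. The gap between the sums may rest on this gene. Monocyte and macrophage markers had their lowest sum of the 6 arrays on transgenic array 2, at 4749, and so had the 6 tested of 12 mast cell markers, at 84.2 against 185 and 685 on the other transgenic arrays and 490 to 1083 on the control arrays. The 10 tested of 11 fibroblast markers summed to 23638 on that array, above 16534 and 21619 on the other transgenic arrays. On the control arrays they summed to 28708 to 29671. The part of any of these cells in the Il33 values was not tested. Of 11 type 2 and regulatory genes, Il4, Il5, Il13, Il9, Il10 and Foxp3 stayed under 4 on every array. Gata3, which encodes a transcription factor of type 2 lymphocytes, reached 6.47 on transgenic array 1, did not exceed 3.54 elsewhere and was not tested. Of this list only Retnlb and Arg1 were tested, with 0 calls in limma and 0 at an unadjusted p under 0.05. Retnlb, which encodes a goblet cell protein, was at 5.08, 11.69 and 8.54 in the transgenic tumours, against 6.58, 2.34 and 6.09 in control tumours, overlapping. Arg1, an arginase gene of alternatively activated macrophages, was at 12.63, 11.39 and 10.73 in the transgenic tumours, against 11.38, 10.98 and 10.19 in control tumours, also overlapping.

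**Figure D2:**
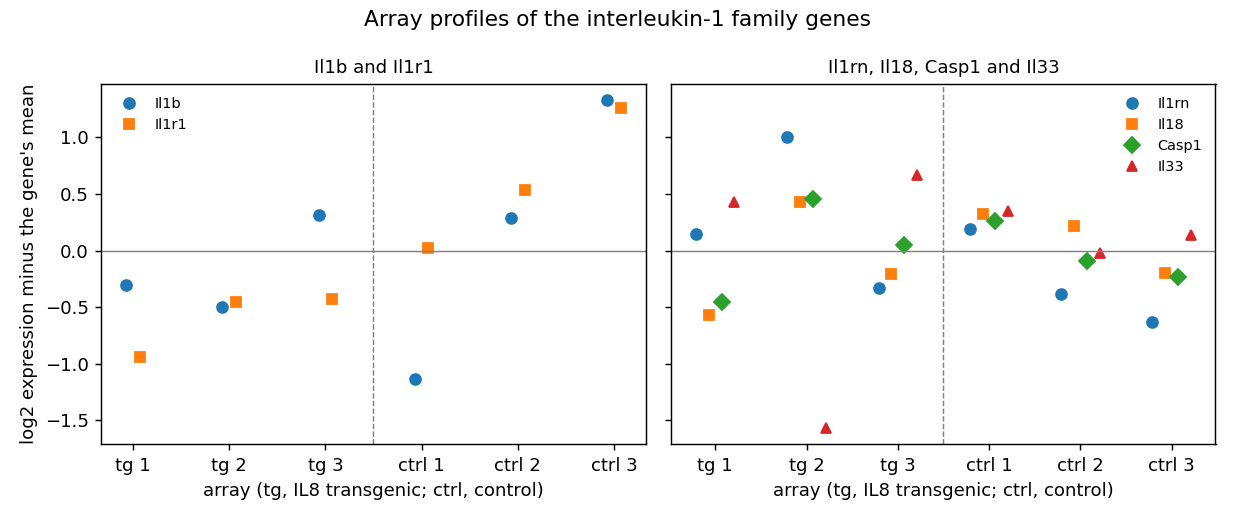
Log2 expression minus each gene's mean over the 6 arrays (vertical axis), by array, for Il1b and Il1r1 (left) and for Il1rn, Il18, Casp1 and Il33 (right), using the brightest probe set of each gene. Control array 3 is highest for Il1b and Il1r1 and lowest among the controls for Il1rn, Il18 and Casp1, and Il33 drops to 6.89 on transgenic array 2 (tg 2).

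Among the receptors, the signalling receptor gene Il1r1 was lower on every transgenic array than on any control array. Its brighter probe set was at 6.09, 6.58 and 6.61 in the transgenic tumours, against 7.06, 7.57 and 8.29 in control tumours. The groups did not overlap, as for 6.31% of all probe sets tested in this direction, and the control values spread more widely. The means were 6.43 ± 0.29 in transgenic and 7.64 ± 0.62 in control tumours (SD, n = 3 each), a 2.32-fold lower mean in transgenic tumours. The difference was -1.21 ± 0.34 (SE) with a 95% interval of -2.03 to -0.39, and it did not pass, at an unadjusted p of 0.0108 and a limma adjusted p of 0.806. With any 1 array left out it stayed between -1.50 and -0.89. The other Il1r1 probe set stayed at 1.47 to 1.86 on all 6 arrays and was not tested.

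Il1r1 is carried by stromal cells as well as epithelium, and most stromal markers also had lower means in transgenic tumours. Of 11 fibroblast markers 10 were tested, 9 of them lower in transgenic tumours, with a median difference of -0.47, and 0 called by limma (1 at an unadjusted p under 0.05). The groups did not overlap for 3 of the 10, all lower, beside the 6.31% over all probe sets tested. Their summed linear level was 16534 to 23638 on the transgenic and 28708 to 29671 on the control arrays, without overlap. Pdgfra, which encodes a receptor for platelet-derived growth factor, differed by -1.24. Endothelial markers were lower in 6 of 7 tested genes with 0 calls (1 at an unadjusted p under 0.05). The part of stromal content in the Il1r1 values was not tested.

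The decoy receptor gene Il1r2 was high on a single array. It was at 6.17, 3.87 and 4.004 in the transgenic tumours, against 3.88, 4.70 and 4.63 in control tumours. Transgenic array 1 stood above the rest, and the other transgenic values lay near the level used for testing. The difference was 0.28 ± 0.64 (SE), with a limma adjusted p of 0.932, and it was -0.47 without transgenic array 1. Il1rap, the accessory chain shared by the receptors of IL-1 and IL-33, had 5 probe sets that all stayed under 4, at 1.67 to 3.96, and none was tested.

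**Figure D3:**
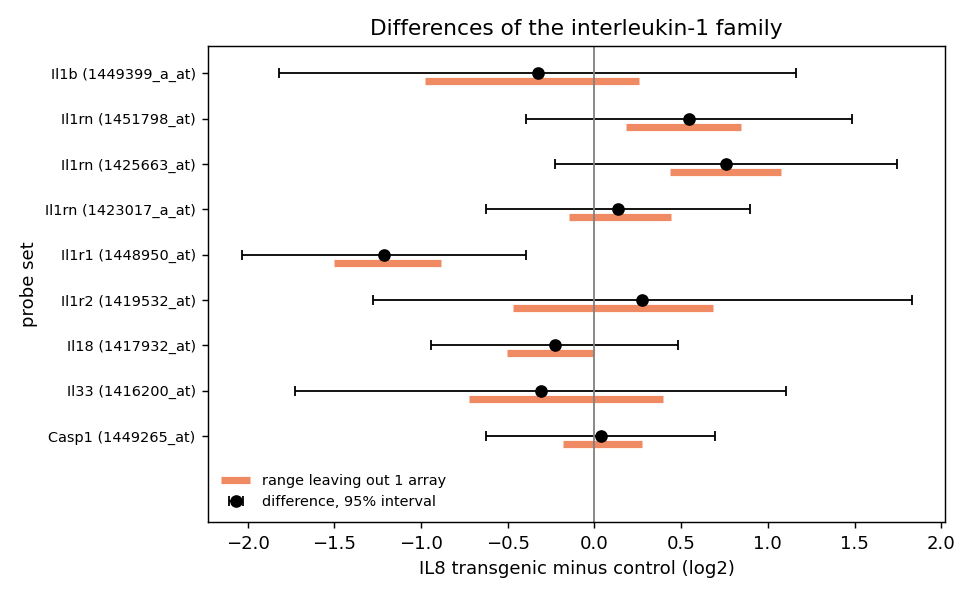
Transgenic minus control difference in log2 expression (horizontal axis) for the 9 tested probe sets, with the 95% interval of the limma fit (black) and the range when each array is left out in turn (orange). The interval excludes 0 for Il1r1 alone, before adjustment, and the orange range crosses 0 for Il1b, one Il1rn probe set, Il1r2, Il33 and Casp1.

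The rest of the family was mostly below the level of testing. Of 6 further ligands and binding proteins, the IL-36 genes Il36a, Il36b, Il36g and Il36rn and the ligand gene Il1f10 stayed at 3.19 or less on every array. Il18bp, which encodes the soluble inhibitor of IL-18, was at 3.87, 3.94 and 4.30 in transgenic tumours and 3.65, 4.38 and 5.03 in control tumours, a difference of -0.32 with a limma adjusted p of 0.852. Of 6 further receptors only Sigirr, a negative regulator, was tested, at 6.50, 7.23 and 7.28 in the transgenic tumours, against 6.75, 7.36 and 7.35 in control tumours (difference -0.15, limma adjusted p 0.914). The IL-36 receptor gene Il1rl2 reached 4 on transgenic array 2 alone, at 4.75, and the IL-18 receptor chain gene Il18rap on transgenic array 1 alone, at 4.67. Il18r1, the other IL-18 receptor chain gene, stayed at 3.30 or less.

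The machinery that processes IL-1β and IL-18 was expressed in both groups, with no call. Of 16 inflammasome and processing genes 10 were tested, 6 higher and 4 lower in transgenic tumours, with a median difference of 0.06, 0 called by limma and 2 at an unadjusted p under 0.05. Those were the inflammatory caspase genes Casp4 and Casp12. Casp4 was at 8.81, 7.91 and 8.61 in the transgenic tumours, against 9.05, 9.22 and 9.22 in control tumours. It differed by -0.72 ± 0.26 (SE, limma adjusted p 0.806). Its groups did not overlap, as for 1 of the 10, beside 6.31% lower without overlap over all probe sets tested. Casp12 was at 7.09, 6.44 and 6.83 in the transgenic tumours, against 7.03, 8.196 and 8.37 in control tumours. It differed by -1.08 ± 0.39. Naip5, a sensor of bacterial flagellin in mice, differed by 0.64 and Txnip by 0.48. Pycard, the adaptor that joins sensors to caspase-1, was at 11.22, 12.97 and 11.60 in the transgenic tumours, against 11.83, 11.26 and 11.34 in control tumours, highest on the squamous-bearing array 2. Gsdmd, the pore-forming target of the caspases, differed by -0.11. The sensor gene Nlrp3 stayed at 2.97 or less on all arrays.

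Genes that carry the signal below the receptor differed in both directions, with no call. Of 20 signalling genes 16 were tested, 10 higher and 6 lower, with differences of -0.47 to 0.68, a median of 0.04, 0 called by limma and 0 at an unadjusted p under 0.05. The adaptor gene Myd88 was at 8.49, 8.85 and 8.37 in transgenic tumours and 8.62, 8.74 and 8.38 in control tumours. Irak2, a kinase of the receptor complex, differed by -0.47 and the ubiquitin ligase gene Traf6 by 0.68. Traf6 was at 6.89 on transgenic array 1 and 5.49 or less elsewhere.

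Genes that IL-1 can induce went both ways. Of 22 such genes 19 were tested, 8 higher and 11 lower, with differences of -1.77 to 2.00, a median of -0.25, 0 called by limma and 1 at an unadjusted p under 0.05. That gene was the neutrophil chemokine gene Cxcl5, at 10.74, 10.74 and 10.88 in the transgenic tumours, against 11.37, 11.34 and 11.29 in control tumours, which differed by -0.54 ± 0.13 (SE, limma adjusted p 0.806). The matrix protease gene Mmp3 was at 11.44, 9.82 and 8.32 in the transgenic tumours, against 8.42, 6.04 and 9.13 in control tumours. Mmp13 differed by 0.75. The adhesion molecule gene Vcam1 differed by -0.50. Il6 stayed under 4 on all arrays but control array 3, where it was at 5.01, the array that also had the highest Il1b.

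**Figure D4:**
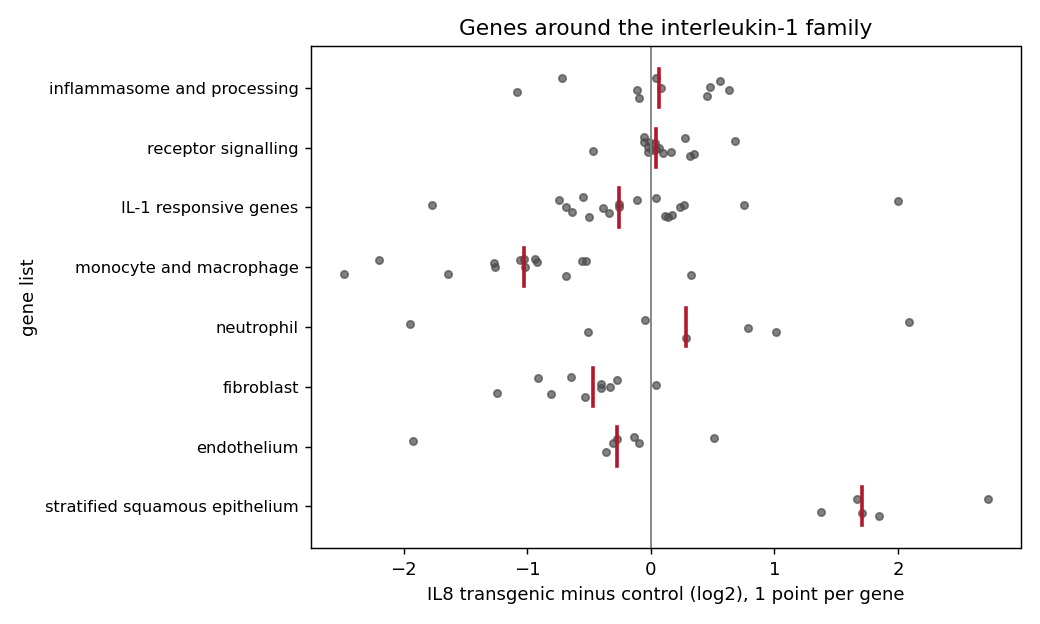
Transgenic minus control difference in log2 expression (horizontal axis) of the tested genes of 8 lists, 1 point per gene, with the list median as a red bar. Medians are 0.06 for inflammasome genes, 0.04 for receptor signalling and -0.25 for IL-1 responsive genes, beside -1.02 for monocyte and macrophage, 0.29 for neutrophil, -0.47 for fibroblast, -0.27 for endothelial and 1.71 for squamous markers.

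The profiles most like those of the family over the 6 arrays were found by the root mean square difference of gene-centred log2 values, among 10289 genes, for members spanning at least 1 log2 unit. Nearest to Il1r1 was Timp1, an inhibitor of matrix metalloproteinases, at a root mean square difference of 0.12, with 6.29, 6.86 and 6.64 in transgenic and 7.25, 7.57 and 8.60 in control tumours, followed by Gpt2 (0.17). Nearest to Il1rn was Naip2, a sensor of bacterial secretion proteins in mice, at 0.062, followed by Serpinb5 (0.12). Il18 lay nearest to Wdr47 (0.076) and Nadk (0.11), and Il33 to Dusp4 (0.18) and B4galnt2 (0.20). Il1b had no neighbour as close, with Top1mt at 0.27 and G530011O06Rik at 0.30, and Il1r2 lay nearest to Stra6l (0.18) and Rac3 (0.23). These distances describe 6 arrays and carry no test.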

How the data were processed

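Total RNA of colon cancer tumours was labelled with biotin and hybridised to 6 Affymetrix arrays, per the labels' protocols. The authors deposited log2 expression values made with GCRMA, per the submitters' processing notes. GCRMA corrects background and summarises the probes of a set. Neither its version nor a genome build is given in the sources used here, and the log2 scale was read from the values. Background correction pulls low values together, so values under 4 carry little order.

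Values were used as deposited. The 64 AFFX controls were left out, and probe sets at 4 or more on at least 3 of 6 arrays were kept (19310 of 45037). Array medians were 3.31 to 3.36. Groups followed titles and genotype labels, because "control" appears in the source names of both groups. limma 3.58.1 in R 4.3.3 (lmFit, eBayes) was fitted to all kept probe sets, with Benjamini-Hochberg adjustment over them. Intervals are 95% intervals of that fit, unadjusted. Named genes were every member, up to 4 genes of smallest p per list, members of the 3 lists nearest the family, and the 2 nearest profiles. Myd88, Il6, Krtdap, Trp63, Krt5, Xist, Eif2s3y, Epcam, Cdh1, Ptprc, Lyz2, the untested neutrophil markers and the type 2 genes were named outside this rule, after their values were seen. The members and lists were chosen with earlier results of these data known. Tested on data simulated for 19310 probe sets of this comparison, the fit called 1 of 50 probe sets changed by 0.5 log2 units. It called 9 of 50 changed by 1, 34 of 50 changed by 2 and 45 of 50 changed by 4, with 2 false calls. The motif letters were chosen after the windows had been seen. Another motif, like that of NF-κB, was searched in 2 spellings and is not reported.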

Additional observations from a re-analysis of the deposited data

How the results depend on the processing

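Every tested probe set of the family stayed above an adjusted p of 0.05 in all 16 alternatives, with a lowest limma adjusted p of 0.364 (Il1r1 without transgenic array 3). Of 142 recomputed differences, 132 kept their direction and 10 turned. Changing the filter, the eBayes options, the threshold or the genes tested, or adding the replicate block, cannot move a difference. The 132 therefore include differences that could not turn. All 10 turns came with array quality weights or with 1 array left out. With array quality weights Il33 was at 0.11, Il1r2 at -0.17, the dimmest Il1rn probe set at -0.22 and Il1b at 0.044, and the family median moved to 0.044. The others turned without transgenic array 1 (Il1r2), without transgenic array 2 (Il33, the dimmest Il1rn probe set and Casp1, at -0.18) and without control array 3 (Il1b, and Casp1 at -0.07). The cause was not tested. Leaving out 1 array at a time, Il33 ran from -0.72 to 0.40, Il1r2 from -0.47 to 0.68, the dimmest Il1rn probe set from -0.15 to 0.44, Casp1 from -0.18 to 0.27 and Il1b from -0.98 to 0.26, the family median ran from -0.26 to -0.07, the family's calls stayed at 0, and the calls over all probe sets ran from 8 to 11. Without named X- and Y-linked genes, an alternative chosen after seeing the data, 3 probe sets passed in place of 11. With the replicate block 8 passed, 0 of them in the family, and the Il1r1 difference was -1.21 with a limma adjusted p of 0.943. Same-numbered arrays had deviations correlated at -0.27, -0.28 and -0.05, which gave no sign that the numbers pair them. Deviations from means of 3 arrays cannot exclude a pairing. Of the transgenic arrays, none correlated best with the control array of its own number. Signal near background limits Il1a, Il1r2, Il1rap and the dimmest Il1rn probe set.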
